A study of Arabidopsis thaliana with 12 samples.

Results

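A list of 54 genes for proteins of the cytosolic ribosome was followed through RNA-seq of the aerial tissues of *Arabidopsis thaliana* seedlings, out of 23784 genes in the deposited tables. The members were taken by their gene identifiers, and the list was chosen with earlier results of these data known. Of the members, 36 encode proteins of the large (60S) subunit and 18 encode proteins of the small (40S) subunit. They fall into 25 protein families, of which 13 were represented by 2 genes, 8 by 3 genes and 4 by 1 gene. Another 167 cytosolic ribosomal protein genes of the tables were kept apart as a comparison list.

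Each of 4 genotypes in the Col-0 accession was represented by 3 samples, and each sample pooled about 20 to 30 plants. The *octuple* mutant carries mutations in *EDS1*, *PAD4*, *NDR1*, *CBP60b*, *CBP60c*, *CBP60d*, *CBP60e* and *CBP60f*. The *quintuple* mutant carries those in the 5 *CBP60* genes only, the *epn* mutant those in *EDS1*, *PAD4* and *NDR1* only, and WT carries none. EDS1 and PAD4 relay signals of TIR-type NLR immune receptors, NDR1 relays those of many coiled-coil NLR receptors, and *CBP60b* to *CBP60f* encode calmodulin-binding transcription factors whose combined loss causes autoimmunity. The study states that *quintuple* plants die at about the age of sampling, so living and dying tissue cannot be told apart in these libraries.

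Cytosolic ribosomes of plants are built from ribosomal RNAs and a large set of proteins, and almost every protein is encoded by several paralogous genes. Proteins made in the cytosol enter the nucleus, assemble with rRNA in the nucleolus, and leave as 60S and 40S subunits, which join on an mRNA. Ribosomal protein genes are among the most strongly transcribed genes of growing leaves, and their promoters often carry the telo-box and site II elements. Most of these proteins are needed in equal number in each ribosome, and their genes are commonly regulated as a group.

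Between 38698646 and 44294404 fragments were counted per library, so that 3 counts correspond to 0.0677 to 0.0775 CPM, which are counts scaled to library size. All 54 members are annotated as protein coding and as ribosomal in the RefSeq annotation, and none is annotated to the plastid ribosome. The product name states a ribosomal protein for 50 of them, and the other 4 are *RPL10C*, named there as senescence associated gene 24, and the 3 *RPS10* genes, named by their S10 domain. Replicate 3 lay apart from replicates 1 and 2 in every genotype, with a chi-square per degree of freedom of 343 to 414 against them and of 34.0 to 60.7 between replicates 1 and 2. *CBP60b* (AT5G57580) averaged 48.7 CPM in *octuple*, 208 in *quintuple*, 39.5 in *epn* and 42.7 in WT, and *EDS1* (AT3G48090) averaged 7.40, 101, 5.03 and 21.1 CPM in the same genotypes. Counts per gene do not show whether these transcripts are complete.

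Promoters are shown for the 2 *RPL9* members, a pair whose changes lay far apart, and for *RPL3A* and *RPL8* gene AT2G18020, which were among the members highest in level. The capitals mark a telo-box (AAACCCTA) or a site II element (TGGGCC or TGGGCT), which were searched on both strands, and the sequences come from RefSeq's TAIR10.1 build and end 1 base before the annotated start. The first is *RPL9* gene AT1G33140 at chr1:12022975-12023224 on the plus strand, with site II elements beginning 239, 101, 78 and 16 bases before the start. The second is *RPL9* gene AT4G10450 at chr4:6464559-6464808 on the minus strand, which holds none of the marked elements in the bases shown. The third is *RPL3A* at chr1:16266303-16266552 on the plus strand, with site II elements 148, 135 and 117 bases before the start. The fourth is AT2G18020 at chr2:7836817-7837066 on the plus strand, with site II elements 206 and 30 bases before the start.
AT1G33140: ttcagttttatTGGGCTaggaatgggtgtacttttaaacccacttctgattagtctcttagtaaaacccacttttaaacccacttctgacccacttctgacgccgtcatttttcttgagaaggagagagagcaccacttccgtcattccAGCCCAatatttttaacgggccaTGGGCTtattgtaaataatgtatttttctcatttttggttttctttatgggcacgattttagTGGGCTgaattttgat
AT4G10450: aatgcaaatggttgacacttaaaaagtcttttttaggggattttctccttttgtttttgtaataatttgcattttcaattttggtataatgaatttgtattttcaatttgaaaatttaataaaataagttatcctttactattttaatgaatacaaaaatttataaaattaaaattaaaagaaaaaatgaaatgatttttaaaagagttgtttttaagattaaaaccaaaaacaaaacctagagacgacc
RPL3A: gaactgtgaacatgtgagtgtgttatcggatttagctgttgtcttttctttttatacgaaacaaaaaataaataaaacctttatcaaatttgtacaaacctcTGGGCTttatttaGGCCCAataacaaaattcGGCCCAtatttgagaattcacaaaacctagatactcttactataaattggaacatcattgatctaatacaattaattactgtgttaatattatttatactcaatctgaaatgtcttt
AT2G18020: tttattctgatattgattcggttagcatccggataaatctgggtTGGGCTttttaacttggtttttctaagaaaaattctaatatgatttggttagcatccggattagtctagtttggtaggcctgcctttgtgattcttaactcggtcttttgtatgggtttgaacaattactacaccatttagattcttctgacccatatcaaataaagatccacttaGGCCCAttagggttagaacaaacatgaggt

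A window of 250 bases before to 50 bases after the start held a telo-box in 28 of the 54 members (51.9%), against 6.22% of all 27443 protein-coding genes. At least 1 site II element was found in 39 members (72.2%), against 21.7% of all protein-coding genes, and both elements were found in 20 members (37.0%), against 2.20%. The 167 other cytosolic ribosomal protein genes held a telo-box in 48.5% and a site II element in 79.0% of promoters. TGGGCC was found in 61.1% of the members and 15.5% of all protein-coding genes, and TGGGCT in 57.4% and 14.2%. A match is a run of letters only, and the sequence of TGGGCC may overlap its own copy on the other strand. The medians of the change described next were close with and without each element. In *quintuple* against WT the median log2 fold change was -1.34 in the 28 members with a telo-box and -1.46 in the 26 without, and it was -1.42 in the 39 with a site II element and -1.41 in the 15 without.

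FPKM values, which scale counts to gene length and to the total of the library, were used to compare levels between genes. *RPSAB* was low, with a mean of 8.09 FPKM in WT, as was *RPL10B* with 13.0 FPKM, and among the highest were *RPL3A* with 448 and *RPL8* gene AT2G18020 with 439 FPKM. The median member was at 164 FPKM in *octuple*, 84.1 in *quintuple*, 171 in *epn* and 179 in WT. The summed counts of the 54 members took 1.09, 1.17 and 1.28% of counted fragments in the *octuple* libraries, 0.515, 0.592 and 0.716% in *quintuple*, 1.11, 1.32 and 1.27% in *epn*, and 1.20, 1.30 and 1.39% in WT. The *quintuple* libraries lay below all the others, whereas the ranges of *octuple*, *epn* and WT overlapped. Between libraries of the same replicate number, *octuple* was below WT in 3 of 3 pairs. The mean share in *quintuple* was 0.468 of that in WT, and 0.387 of it when library sizes were scaled by TMM, the edgeR scaling that sets most genes to no change. In bulk samples such as these, fewer cells of a type and less RNA per cell cannot be told apart.

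Members of both subunits took smaller shares in *quintuple* to about the same degree. The 60S members took 0.797 ± 0.0674% of counted fragments in *octuple*, 0.414 ± 0.0681% in *quintuple*, 0.834 ± 0.0654% in *epn* and 0.872 ± 0.0613% in WT (SD, n = 3 each). The 40S members took 0.386 ± 0.0275%, 0.194 ± 0.0336%, 0.399 ± 0.0422% and 0.426 ± 0.0312% in the same genotypes. The ratio of 60S to 40S counts was 2.07 ± 0.0343 in *octuple*, 2.13 ± 0.0389 in *quintuple*, 2.09 ± 0.0624 in *epn* and 2.05 ± 0.00819 in WT. With the 167 other genes added, cytosolic ribosomal proteins took 3.37 ± 0.271% in *octuple*, 1.75 ± 0.300% in *quintuple*, 3.49 ± 0.341% in *epn* and 3.70 ± 0.306% in WT. These sums are a description of chosen genes and carry no test.

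**Figure D1:**
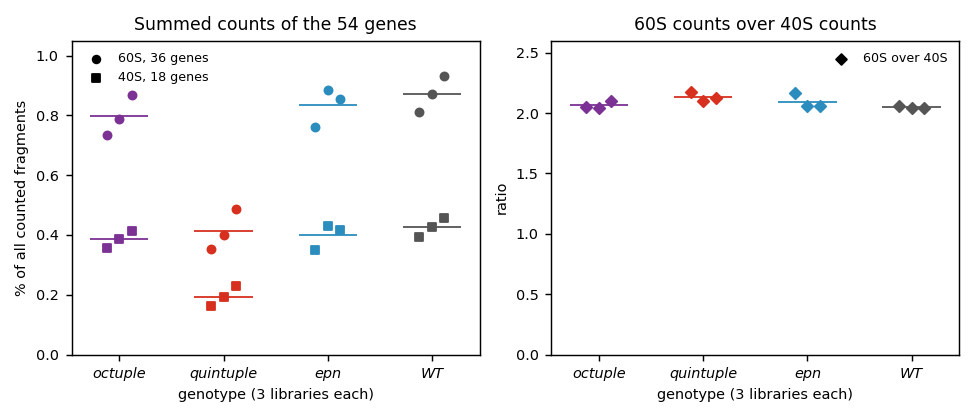
Summed counts of the 60S and 40S members as a percentage of all counted fragments (left) and their ratio (right), by genotype. Each point is 1 library and each line is the mean of 3; the *quintuple* points lie lowest for both subunits, while the ratios of all 12 libraries lie between 2.04 and 2.18.

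The comparison of *quintuple* with WT asks what the loss of the 5 *CBP60* genes changes in plants with intact *EDS1*, *PAD4* and *NDR1*. Of the 54 members, 52 fell and none rose at an adjusted p under 0.05, where 27.7% of all 19691 genes tested fell and 29.3% rose (edgeR quasi-likelihood F-test with p adjusted by Benjamini-Hochberg over all genes tested). A fold change of at least 2 was reached by 50 of the 52, against 19.5% of all genes. The median log2 fold change of the members was -1.42, with a range of -2.23 to -0.31, and the median of all genes was 0.00. In TMM-scaled CPM all 54 members were lower in *quintuple* than in WT without overlap between the libraries, against 33.5% of all genes. In FPKM, 52 members were so, and 2 overlapped.

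The *RPL11* and *RPL5* families bind 5S rRNA, which they bring to the 60S subunit as a particle. The largest fold change among all members was that of *RPL16A* (AT2G42740), a gene of the *RPL11* family. It was at 14.3, 14.4 and 17.8 FPKM in *octuple*, 4.24, 4.83 and 5.65 in *quintuple*, 18.6, 18.4 and 15.9 in *epn*, and 17.6, 21.2 and 18.1 in WT. The 3 *quintuple* libraries stood below the other 9, and the log2 fold change against WT was -2.23 (SE 0.17, adjusted p = 0.000304, Benjamini-Hochberg, edgeR quasi-likelihood F-test). Its paralogue AT3G58700 fell by 1.63 on the log2 scale. The *RPL5* pair moved alike: *RPL5A* was at 121, 135 and 157 FPKM in *quintuple*, against 316, 339 and 350 in WT. *RPL5B* was at 107, 114 and 157 FPKM in *quintuple*, against 261, 274 and 298 in WT. Neither gene overlapped between these genotypes, and the log2 fold changes were -1.56 and -1.42.

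Proteins at or near the centre that joins amino acids include RPL3, RPL8 and RPL10. *RPL3A* was at 403, 415 and 420 FPKM in *octuple*, 174, 200 and 222 in *quintuple*, 368, 452 and 419 in *epn*, and 435, 448 and 460 in WT. *RPL8* gene AT2G18020 was at 405, 433 and 433 FPKM in *octuple*, 195, 234 and 245 in *quintuple*, 333, 440 and 427 in *epn*, and 406, 445 and 465 in WT. Both were lowest in the *quintuple* libraries, with log2 fold changes against WT of -1.44 and -1.23. *RPL10A* (AT1G14320), whose protein in Arabidopsis is also a target of the antiviral receptor kinase NIK1, was at 192, 234 and 268 FPKM in *quintuple*, against 379, 410 and 419 in WT. *RPL10B* (AT1G26910) was at 5.16, 6.18 and 8.07 FPKM in *quintuple*, against 13.5, 13.7 and 11.8 in WT. *RPL10C* (AT1G66580), annotated as a senescence associated gene, was at 103, 91.1 and 148 FPKM in *quintuple*, against 109, 112 and 130 in WT. Thus *RPL10A* and *RPL10B* fell, with log2 fold changes of -1.07 and -1.29, whereas *RPL10C* overlapped in FPKM and was not called (-0.31, SE 0.16, adjusted p = 0.150, Benjamini-Hochberg, edgeR quasi-likelihood F-test). Without *quintuple* replicate 3 the value of *RPL10C* was -0.45 and the adjusted p was 0.0298 in the same edgeR test.

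The L1 stalk and the base of the P stalk, where RPL10a and RPL12 sit, hold sites that the exiting tRNA and the elongation factors contact. *RPL10a* gene AT5G22440 had 68.5, 73.2 and 82.5 FPKM in *octuple*, 23.5, 27.4 and 28.9 in *quintuple*, 73.6, 87.6 and 79.7 in *epn*, and 80.8, 86.0 and 92.2 in WT. Its levels in *quintuple* did not overlap those of any other genotype, and the log2 fold change against WT was -1.97. The paralogues AT2G27530, known as *PGY1* for its part in leaf polarity, and AT1G08360 fell by 1.60 and 1.28. *RPL12* gene AT2G37190 was at 45.4, 54.2 and 74.2 FPKM in *quintuple*, against 153, 176 and 181 in WT. *RPL12* gene AT5G60670 was at 17.0, 24.6 and 29.5 FPKM in *quintuple*, against 64.6, 73.5 and 70.1 in WT. The log2 fold changes of these 2 genes were -1.84 and -1.83, and that of the third, AT3G53430, was -1.41.

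Among the other 60S families, *RPL9* gene AT4G10450 was at 15.8, 18.6 and 20.0 FPKM in *octuple*, 5.21, 6.02 and 11.5 in *quintuple*, 19.5, 26.4 and 20.9 in *epn*, and 24.7, 25.0 and 23.8 in WT. It fell by 1.99 on the log2 scale. The other *RPL9* member, AT1G33140 (*PGY2*), fell by 1.14. Of its 50-base exonic sequences, 54.2% also lie in another gene, AT1G33120, so its counts are uncertain. The comparison list holds 1 further *RPL9* gene, so these members are not the whole family. AT1G33140 was at 90.3, 94.7 and 123 FPKM in *octuple*, 55.1, 56.3 and 90.5 in *quintuple*, 84.5, 115 and 132 in *epn*, and 99.9, 116 and 153 in WT. The promoter of this gene, as printed, holds 4 site II elements and that of AT4G10450 none. In the window that runs to 50 bases after the start, AT1G33140 holds 5 site II elements and AT4G10450 none, and each holds 1 telo-box. RPL24, a protein at the bridge between the subunits, is encoded by 2 members. *RPL24A* was at 57.7, 63.3 and 73.9 FPKM in *quintuple*, against 172, 185 and 211 in WT. *RPL24B* (*STV1*), needed in Arabidopsis for translation of auxin response factor mRNAs, was at 137, 155 and 215 FPKM in *quintuple*, against 270, 289 and 300 in WT. Both fell, *RPL24A* by 1.81 and *RPL24B* by 1.04 on the log2 scale.

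The smallest called changes were in *RPL7* and *RPL6*. *RPL7* gene AT3G13580 was at 47.2, 48.1 and 49.4 FPKM in *octuple*, 33.7, 33.0 and 39.3 in *quintuple*, 50.6, 45.4 and 41.9 in *epn*, and 43.9, 44.8 and 46.5 in WT. It was still lowest in the *quintuple* libraries, with a log2 fold change of -0.62 (SE 0.11, adjusted p = 0.00362, Benjamini-Hochberg, edgeR quasi-likelihood F-test). Scaled by library size alone the value was -0.35 and the adjusted p was 0.0739 (Benjamini-Hochberg, edgeR quasi-likelihood F-test), so this call was lost. *RPL6* gene AT1G74060 was at 58.8, 63.2 and 73.6 FPKM in *quintuple*, against 89.9, 95.7 and 106 in WT, and its log2 fold change was -0.84. Of its 50-base exonic sequences, 36.3% also lie in another gene, most of them in AT1G74055 on the other strand, which took at most 32 counts, and the strand setting of the counting is not given in the sources used here. *RPL6* gene AT1G18540 (38.1% shared) overlaps AT1G18530, which took at most 4 counts. *RPL8* gene AT4G36130 (21.4% shared) overlaps AT4G36140, which took up to 1573 counts, against a lowest count of 1873 for AT4G36130 in *quintuple*, so its values are the less certain. By contrast, 32 of the 54 members share no 50-base sequence with another gene.

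Of the 18 small subunit members, 17 fell. RPS6, the best known target of S6 kinase in the TOR pathway, is encoded by 2 of them. *RPS6A* was at 273, 291 and 339 FPKM in *octuple*, 110, 128 and 171 in *quintuple*, 286, 327 and 317 in *epn*, and 315, 325 and 359 in WT. *RPS6B* was at 267, 289 and 303 FPKM in *octuple*, 134, 160 and 181 in *quintuple*, 268, 311 and 289 in *epn*, and 291, 308 and 309 in WT. The *quintuple* libraries were lowest for both genes, and the log2 fold changes were -1.57 and -1.21. *RPS5A*, whose promoter is widely used to mark dividing cells, was at 122, 138 and 162 FPKM in *quintuple*, against 253, 269 and 298 in WT. *RPS18A* (*PFL*), whose loss in Arabidopsis gives pointed first leaves, was at 61.2, 73.7 and 82.0 FPKM in *quintuple*, against 175, 176 and 187 in WT. They fell by 1.23 and 1.58 on the log2 scale.

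RPSa, the counterpart of the animal laminin receptor precursor, and RPS10 belong to the small subunit as well. *RPSAB* was at 2.03, 3.69 and 4.46 FPKM in *quintuple*, against 9.68, 8.43 and 6.16 in WT, and fell by 1.55 (SE 0.32). *RPS10* gene AT5G52650 was at 61.3, 76.5 and 101 FPKM in *quintuple*, against 198, 205 and 245 in WT, and fell by 1.72.

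**Figure D2:**
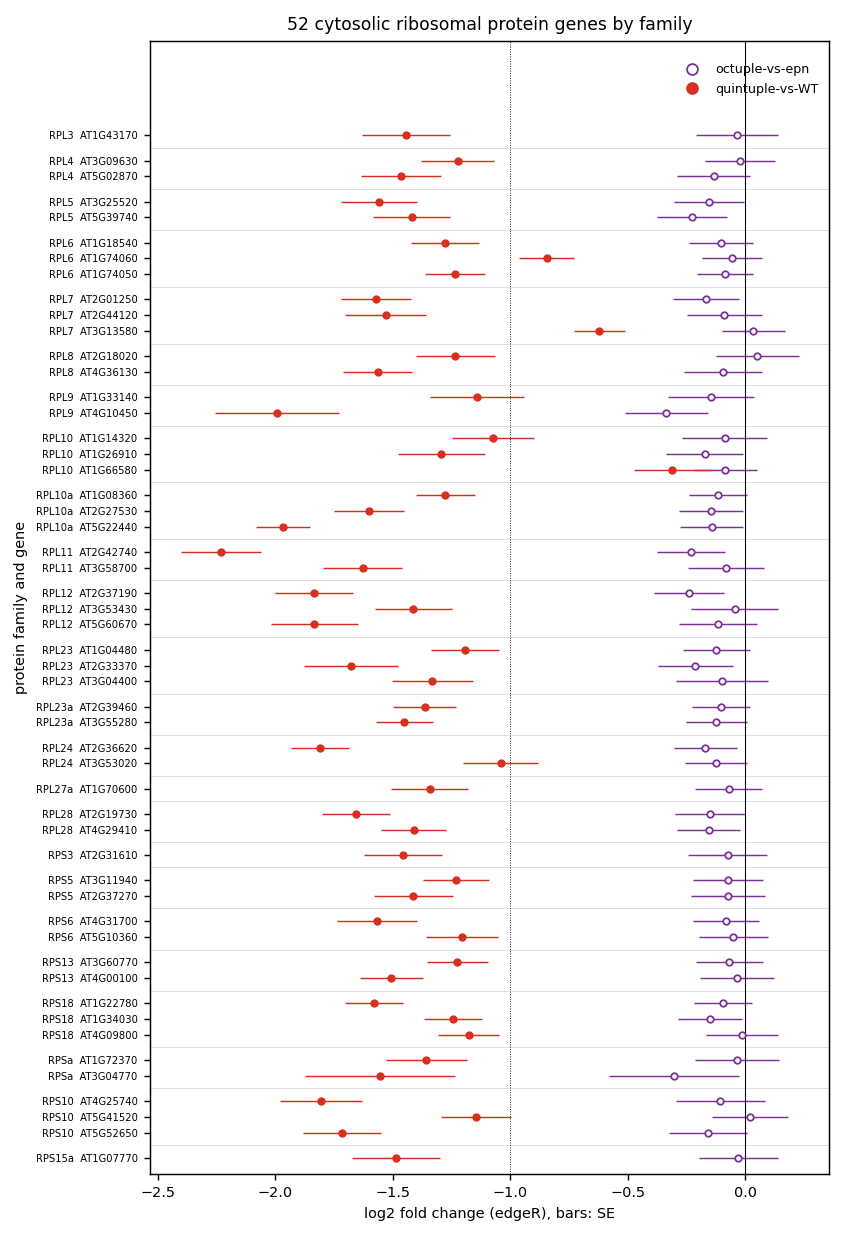
Log2 fold change of 52 members in *quintuple* against WT (filled) and in *octuple* against *epn* (open), grouped by protein family, with bars of 1 SE; the dotted line marks a 2-fold decrease. Filled points lie between -2.23 and -0.31 and open points between -0.34 and 0.05.

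Comparing *octuple* with *epn* asks what the loss of the *CBP60* genes changes where *EDS1*, *PAD4* and *NDR1* are missing too. None of the 54 members was called in either direction, against 2.47% of all 19238 genes called higher and 0.177% called lower (Benjamini-Hochberg, edgeR quasi-likelihood F-test). No member had an unadjusted p under 0.05 in edgeR, against 2820 of all 19238 genes, and DESeq2 called none. The median log2 fold change was -0.10, against -0.03 for all genes. A negative sign was found in 50 of the 54 members, against 10457 of the 19238 genes. In TMM-scaled CPM 2 members, AT4G10450 and AT2G37190, were lower in *octuple* without overlap (8.48% of all genes were). *RPL9* gene AT4G10450 was at -0.34 (SE 0.18) and *RPL8* gene AT2G18020 at 0.05 (SE 0.18). *RPSAB* had 5.53, 8.75 and 7.69 FPKM in *octuple*, against 10.1, 9.92 and 6.34 in *epn*, which overlap.

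Against WT, the *octuple* libraries again gave no call among the 54 members, where 1.99% of all 19256 genes were called higher and 0.229% lower (Benjamini-Hochberg, edgeR quasi-likelihood F-test). There were 5 members with an unadjusted p under 0.05 in edgeR, all of them lower. Over all 19256 genes there were 2829, of which 918 were lower. DESeq2 called 1 member, AT4G10450. A negative sign was found in 52 of the 54 members, against 10004 of the 19256 genes. The median log2 fold change was -0.18, against -0.01 for all genes. In TMM-scaled CPM 20 members were lower in *octuple* without overlap, against 9.18% of all genes, 1 was higher and 33 overlapped. With the replicate number as a block, 9 members fell, against 5.44% of all genes, and the median stayed at -0.18. The 9 were *RPL9* genes AT4G10450 and AT1G33140, *RPL10a* genes AT2G27530 and AT5G22440, *RPL12* genes AT2G37190 and AT3G53430, *RPL23* gene AT2G33370, *RPS3* gene AT2G31610 and *RPS10* gene AT5G52650. Their log2 fold changes with the block lay between -0.47 and -0.24. In the blocked edgeR fit 31 of the 54 members had an unadjusted p under 0.05, all of them lower, against 5 without the block. The share of all genes at that unadjusted p with the block is not given here. *RPS10* gene AT5G52650 had 163, 175 and 197 FPKM in *octuple*, against 198, 205 and 245 in WT, and its highest *octuple* library lay just below the lowest WT library.

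The *epn* mutations alone gave no member call against WT, where 0% of 18992 genes were called lower (Benjamini-Hochberg, edgeR quasi-likelihood F-test). No member had an unadjusted p under 0.05 in edgeR, against 419 of all 18992 genes. DESeq2 called no member, the median log2 fold change was -0.08, and all 54 members overlapped in CPM. The comparisons share libraries of WT, *octuple*, *quintuple* or *epn*, so their values are given side by side only.

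Setting *octuple* against *quintuple* asks what the *epn* mutations change in plants without the 5 *CBP60* genes. Of the 54 members, 53 were higher in *octuple*, against 24.5% of all 19643 genes, and none was lower, against 24.1% (Benjamini-Hochberg, edgeR quasi-likelihood F-test). A fold change of at least 2 was reached by 48, against 16.7% of all genes, and the median log2 fold change was 1.29, against 0.02 for all genes. In TMM-scaled CPM 53 members were higher in *octuple* without overlap, against 30.7% of all genes. *RPL10C*, at 104, 101 and 135 FPKM in *octuple* and 103, 91.1 and 148 in *quintuple*, was the member that overlapped and was not called (0.26, adjusted p = 0.261, Benjamini-Hochberg, edgeR quasi-likelihood F-test).

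An interaction fitted to the 12 libraries asked whether the effect of losing the *CBP60* genes differed between the 2 backgrounds, with (*octuple* minus *epn*) set against (*quintuple* minus WT). The interaction was above 0 for 51 members, against 17.6% of all 20134 genes, and below 0 for none, against 14.1% (Benjamini-Hochberg, edgeR quasi-likelihood F-test). It was at least 2-fold for 47 members, against 13.9% of all genes. The median was 1.33 on the log2 scale, so that the decrease in *quintuple* against WT was larger than that in *octuple* against *epn*. The values ran to 2.01 for *RPL16A*, 1.83 for AT5G22440 and 1.73 for AT5G60670, and were 1.49 for *RPS6A* and 1.16 for *RPS6B*. Among those not called were *RPSAB* (1.26, SE 0.45) and *RPL10C* (0.23, SE 0.21).

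Each of the 21 families with 2 or 3 members was examined for changes in common. In *quintuple* against WT all members were called lower in 19 families, no family held calls in opposite directions, and the signs agreed within all 21. The range of log2 fold change within a family had a median of 0.42, with a lowest value of 0.09, and it was under 0.5 in 13 families. The narrowest family was *RPL23a*: *RPL23AA* was at 76.0, 79.2 and 94.9 FPKM in *quintuple*, against 163, 176 and 196 in WT. *RPL23AB* was at 39.9, 47.2 and 48.9 FPKM in *quintuple*, against 103, 103 and 103 in WT. These genes fell by 1.37 and 1.45. Among the widest were *RPL10* at 0.98 and *RPL7* at 0.95, each of which held 1 member that moved less than the rest, and *RPL9* at 0.85. In *octuple* against *quintuple* all members were called higher in 20 families, and the signs agreed in all 21.

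In the *RPL7* family, AT2G01250 was at 255, 266 and 320 FPKM in *octuple*, 109, 129 and 145 in *quintuple*, 281, 322 and 315 in *epn*, and 291, 300 and 353 in WT. AT2G44120 was at 75.0, 83.9 and 87.9 FPKM in *octuple*, 29.2, 36.2 and 49.6 in *quintuple*, 77.3, 96.9 and 81.3 in *epn*, and 83.8, 94.2 and 94.7 in WT. Both fell by more than the median member, with log2 fold changes of -1.57 and -1.53 against a median of -1.42. AT3G13580, lowest of the 3 in WT, thus came to lie within the range of AT2G44120 in *quintuple*. Its share of the counts of the 3 *RPL7* members was 14.3% in *octuple*, 21.2% in *quintuple*, 12.9% in *epn* and 12.3% in WT. *RPL10C* took 22.0% of the *RPL10* counts in *octuple*, 30.3% in *quintuple*, 21.9% in *epn* and 20.4% in WT.

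**Figure D3:**
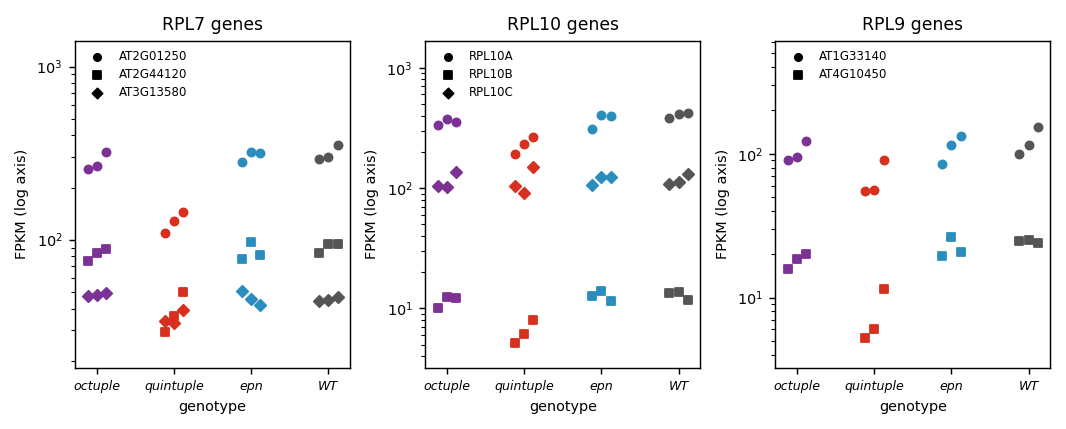
FPKM (log axis) of each gene of 3 families with a wide range of change, *RPL7*, *RPL10* and *RPL9*, by genotype, with 1 point per library. AT3G13580, *RPL10C* and AT1G33140 differ least between *quintuple* and WT within their families.

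Shares of the family counts were tested with an exact permutation test, two-sided, of *octuple* and *quintuple* against *epn* and WT, with genotypes exchanged within each background. Family counts are those of the members only, and the comparison list holds further genes of the *RPL7*, *RPL8*, *RPL9* and *RPL11* families. Of 37 shares tested, 21 had a raw p under 0.05, and none was under 0.05 after Benjamini-Hochberg adjustment over the 37 shares. Shares were computed for all 50 genes of these families, and 13 were left untested because in a family of 2 genes one share fixes the other. On the log2 scale the changes of such a pair still differ in size. The lowest adjusted p was 0.0555 by this exact permutation test, and the smallest raw p that the 400 arrangements allow is 0.005. With the replicate number as a block, 9 of the 37 had a raw p under 0.05 and the lowest adjusted p was 0.128 by the exact permutation test, where the smallest raw p possible is 0.03125. The difference tested is the mean of *quintuple* minus WT and *octuple* minus *epn*, so a shift in 1 background only is diluted. The share of AT3G13580 differed by 0.47 on the log2 scale (permutation p = 0.015, adjusted p = 0.0555), the mean of 0.79 and 0.15. That of *RPL10C* differed by 0.28 (permutation p = 0.065, adjusted p = 0.105), the mean of 0.56 and -0.0017. With the further family genes added to the totals, no share passed either, and the difference for AT3G13580 was 0.45. For AT1G33140 the difference then went from 0.11 to 0.05, and for *RPL16A* from -0.28 to -0.45. For AT3G58700, which was not tested, it changed sign, from 0.084 to -0.082. The median size of the change over the 37 tested shares was 0.17 in *quintuple* against WT and 0.03 in *octuple* against *epn*. Thus the median tested share moved by less than the median member. The untested AT4G10450 moved by -0.73 in *quintuple* against WT, from 24.0% to 14.4% of the counts of the *RPL9* members, and its tested partner AT1G33140 by 0.17. No share passed the adjusted threshold in this test, which averages over the backgrounds and was not run for *quintuple* against WT alone.

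**Figure D4:**
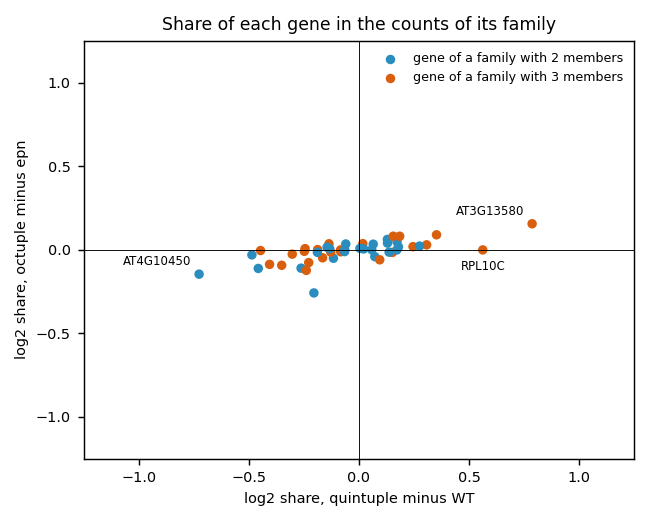
Change of each gene's log2 share of the counts of the members of its family in *quintuple* minus WT (horizontal) and in *octuple* minus *epn* (vertical), 1 point for each of 48 genes in families of 2 or 3 members. AT3G13580 lies at 0.79 and 0.15 and *RPL10C* at 0.56 and 0.00, and most points lie near 0 on the vertical axis.

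Among the 167 other cytosolic ribosomal protein genes, 153 were tested in *quintuple* against WT, of which 147 fell and 3 rose, with a median of -1.35 (Benjamini-Hochberg, edgeR quasi-likelihood F-test, as for the counts that follow). The 3 that rose were *RPL18AA* (AT1G29970, 1.16), *RPL39* gene AT3G02190 (0.74) and *RPS9* gene AT5G39850 (1.36). Of 12 elongation factor genes, 10 fell, with a median of -0.74, and *LOS1*, which encodes the translocation factor eEF2, fell by 0.80. Of 6 genes of the TOR and S6 kinase pathway, which promotes translation, 4 rose: *TOR* by 0.42, *RAPTOR1* by 0.38, *LST8-1* by 0.41 and *S6K2* by 2.41. The S6 kinase gene *PK1* was at -0.22 (SE 0.22) and was not called.

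Nucleolar genes for ribosome assembly also fell in *quintuple*, 13 of 18, while 2 rose, with a median of -0.98. *FIB2*, which encodes the rRNA methyltransferase fibrillarin, fell by 1.95, and *NAP57*, for the pseudouridine synthase dyskerin, fell by 1.20. The nucleolin genes moved in opposite directions: *NUC-L1* fell by 0.70 and *NUC-L2* rose by 1.21. All 31 plastid ribosomal protein genes tested fell, with a median of -2.60, against -1.42 for the 54 members. In *octuple* against *epn* no gene of these 5 lists was called, and 5 had an unadjusted p under 0.05 in edgeR, against 2820 of all 19238 genes. The medians were -0.08 for the other cytosolic ribosomal proteins, 0.07 for elongation factors, -0.17 for the nucleolar genes and -0.31 for the plastid ribosomal proteins. The interaction was above 0 for 144 of 155 other cytosolic ribosomal protein genes and 31 of 31 plastid ones.

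**Figure D5:**
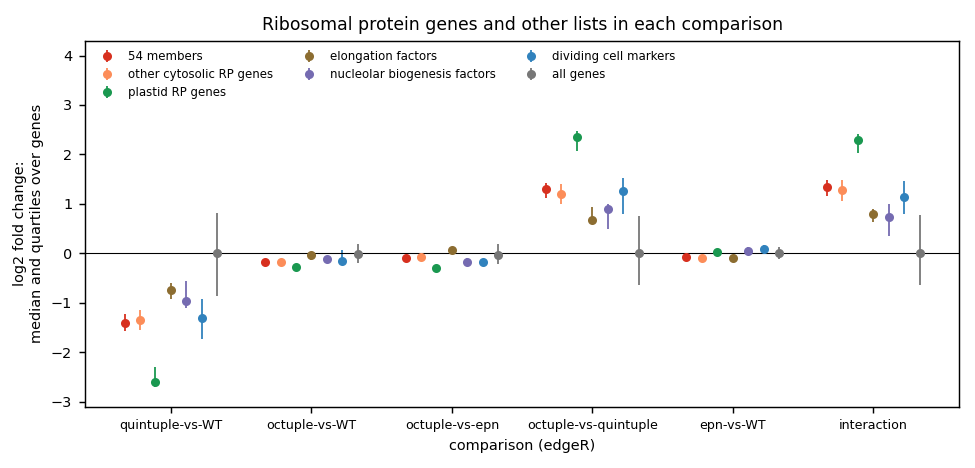
Median log2 fold change, with quartiles, of the 54 members and of other gene lists in each comparison and in the interaction. The members lie at -1.42 in *quintuple* against WT, at -0.10 in *octuple* against *epn* and at 1.29 in *octuple* against *quintuple*. The median of all genes lies near 0 in each, where TMM scaling tends to place it.

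The summed levels of leaf, dividing cell and senescence markers also differed in *quintuple*. The summed level of 5 leaf markers, genes of photosynthesis, ranged over 31938 to 72870 CPM in *octuple*, 4067 to 22585 in *quintuple*, 38080 to 73803 in *epn* and 37854 to 75604 in WT, and in *quintuple* against WT edgeR called none of the 5 and gave 1 an unadjusted p under 0.05. The 9 dividing cell markers summed to 86.3 to 88.7 CPM in *octuple*, 30.2 to 53.1 in *quintuple*, 84.6 to 117 in *epn* and 92.4 to 102 in WT, and 7 of them fell. The 5 senescence markers summed to 69.5 to 281 CPM in *octuple*, 742 to 1134 in *quintuple*, 22.3 to 148 in *epn* and 29.2 to 164 in WT, and 3 of the 4 tested rose. In every genotype the lowest sum of the leaf markers and of the senescence markers was that of replicate 3. In *quintuple*, replicates 1, 2 and 3 had leaf marker sums of 22585, 20903 and 4067 CPM. The 4 root markers summed to at most 1.79 CPM in any library, and *SHV2*, *EXPA7* and *PRP3* had no count in the *quintuple* libraries. The part of these tissue states in the levels of the ribosomal protein genes was not tested.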

How the data were processed

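RNA from pooled aerial tissues was sequenced in 12 libraries, 3 for each of 4 genotypes. The submitters' processing notes name HISAT2, HTSeq and R 3.2.0 without versions of the others, and the authors deposited raw counts per gene as whole numbers. The authors also deposited FPKM values made from those counts and the library totals. The genome build is not given in the sources used here, but the gene lengths implied by the FPKM matched the exon lengths of RefSeq's TAIR10.1 annotation within 1% for 20167 of 20167 genes with at least 20 counts. Depth was 38698646 to 44294404 counted fragments, and limits from 3 counts cover counting error only.

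Counts were tested with edgeR 4.0.16 in R 4.3.3 (TMM, filterByExpr, quasi-likelihood F-test), with 6 libraries per comparison and 12 for the interaction, with Benjamini-Hochberg adjustment over all genes tested and a threshold of 0.05. The study used DESeq2 with a fold change of 2, and DESeq2 1.42.0 and limma 3.58.1 on log2(FPKM + 1) were alternatives, beside other scalings, no filter, all libraries in 1 fit, and each library left out. Summed shares use raw totals. Standard errors are those implied by the F statistic. The edgeR test was also run on simulated counts. That simulation changed few genes, evenly up and down, with no replicate batch, so it does not cover changes as broad as those in *quintuple*.

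Pairing by replicate number was examined through deviations from the genotype means, which correlated at 0.267 to 0.892 in 18 pairs with the same number and at -0.691 to 0.380 in 36 pairs with different numbers. Fits with the number as a block were therefore run, and are given beside a result where they change it.

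Genes with values in every sample were those at the ends of each comparison, families with the widest and the 2 with the narrowest range, and members with known roles. The members, lists and tests were chosen with earlier results of these data known. The results of 1 family are not reported here by gene, though all counts and medians include it. Protein sequences were not used here.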

Additional observations from a re-analysis of the deposited data

Results flagged for a closer look

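What drew attention was a tested difference between backgrounds: the effect of losing the *CBP60* genes in *epn* plants (*octuple* minus *epn*) less the effect in plants with intact *EDS1*, *PAD4* and *NDR1* (*quintuple* minus WT). This interaction was called above 0 for 51 of the 54 members, 144 of 155 other cytosolic ribosomal protein genes tested and 31 of 31 plastid ribosomal protein genes, against 17.6% of all 20134 genes (Benjamini-Hochberg, edgeR quasi-likelihood F-test). Of the 24 members listed next or named as not called in the report, 22 were called, with log2 values of 0.66 to 2.01.

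In the large subunit the interaction on the log2 scale was 2.01 for *RPL16A*, 1.83 for *RPL10a* gene AT5G22440, 1.73 and 1.60 for *RPL12* genes AT5G60670 and AT2G37190, and 1.67 for *RPL9* gene AT4G10450. The *RPL7* genes AT2G44120, AT2G01250 and AT3G13580 were at 1.45, 1.41 and 0.66. *RPL5A* and *RPL5B* were at 1.41 and 1.20, *RPL23AB* and *RPL23AA* at 1.34 and 1.27, and *RPL8* gene AT2G18020 at 1.29. *RPL10B* and *RPL10A* were at 1.13 and 0.99, *RPL24B* at 0.92 and *RPL6* gene AT1G74060 at 0.80. In the small subunit it was 1.57 for *RPS10* gene AT5G52650, 1.49 for *RPS6A*, 1.49 for *RPS18A*, 1.17 for *RPS5A* and 1.16 for *RPS6B*.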

How the results depend on the processing

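The count of members called in *quintuple* against WT was 51 to 53 under all alternatives, 51 with library size alone or limma on FPKM, and 52 to 53 when 1 library was left out. It was 51 to 53 in *octuple* against *quintuple* (52 to 53 with 1 library left out), and 47 to 52 in the interaction (51 to 52), lowest with library size alone. In *octuple* against WT the count was 0 in edgeR, 1 with DESeq2 and 9 with the replicate block, and 0 with any library left out. It was 0 in *octuple* against *epn* and in *epn* against WT under each alternative run. The replicate block changed no other count of members by over 1.5 times, with 52 members in *quintuple* against WT, 52 in *octuple* against *quintuple* and 52 in the interaction. Among paralogue shares, 21 of 37 had a raw p under 0.05 without the block and 9 with it by exact permutation tests, and none passed after adjustment, which the smallest blocked p of 0.03125 made hard to reach. None passed either with the further family genes of the comparison list added to the family totals. With replicate 3 of every genotype left out, chosen after seeing the data, 53 members fell in *quintuple* against WT, *RPL10C* among them.

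Values near 0 changed sign. *RPL6* gene AT1G74060 in *octuple* against WT (-0.03) was at 0.0085 with library size alone, 0.0070 with limma, and -0.068 to 0.025 with 1 library left out, above 0 without WT replicate 2 or *octuple* replicate 1. In *octuple* against *epn*, *RPL8* gene AT2G18020 (0.05) was at -0.061 to 0.18 with 1 library left out, below 0 without *epn* replicate 1 or *octuple* replicate 2. *RPL7* gene AT3G13580 (0.03) was at -0.062 to 0.11, below 0 without *epn* replicate 3 or *octuple* replicate 2, and at -0.011 without replicate 3 of every genotype. The cause was not tested.

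Scaling moved the size of the change. With library size alone the members' median in *quintuple* against WT was -1.14 while the median of all genes was 0.27, and with upper-quartile factors it was -1.57 with all genes at -0.15. The ratio of the members' summed level in *quintuple* to that in WT was 0.426 to 0.504 with 1 library left out. Depth limits *RPSAB* and *RPL16A*, which had as few as 116 and 139 counts in *quintuple*. In addition, 132 exonic bases of *RPSAB* lie within AT3G04780 on the same strand, which took up to 1069 counts.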
